A study of Homo sapiens with 8 samples.

Results

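*DONSON* encodes a replisome assembly factor that brings GINS to licensed MCM2-7 so that the active CMG helicase can form when S phase begins. The protein also guards stalled forks, and inherited loss-of-function changes in the gene cause microcephaly with short stature. *DONSON* was chosen by symbol: every probe whose accession is now named *DONSON* was taken. There was 1 such probe, with 1 spot on each of 8 arrays, and *DONSON* is 1 of 22439 genes that could be named.

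The series compares treated with control lung cancer cells on 8 two-colour arrays, with treated RNA in the red channel, control RNA in the green channel and no dye swap. *miR-150-3p* was transfected into 2 squamous cell carcinoma (LUSQ) lines, with 1 array of EBC-1 and 1 of SK-MES-1. *DONSON* was targeted in the small cell line SBC-3 with 3 siRNAs, 1 array each, and *LOXL2* was edited by CRISPR/Cas9 in the adenocarcinoma line A549, with 3 arrays. The transfected cells were set against cells labelled mock and without transfection, and the edited cells against unedited cells. The labels state no control duplex for any group. They do not state that arrays came from separate cultures, nor whether the edited cells were clones.

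Marker genes in the green channel were compared with the cell line names. SBC-3 had the neuroendocrine markers *NEUROD1*, *CHGA*, *SYP* and *DLL3* well above background on all its arrays, while *INSM1* and *NCAM1* were not well above background on any. Only *NEUROD1* and *SYP* set SBC-3 apart, as they were above background in no other line. *CHGA* and *DLL3* were higher in A549 (SBC-3 minus A549 -1.78 and -2.05), and *DLL3* was above background in every line. Of the 7 neuroendocrine markers, SBC-3 had 4, A549 and SK-MES-1 had 2 each, and EBC-1 had 1. *YAP1* was detected in all 4 lines and *POU2F3* in none, and SBC-3, with 2 of 4 epithelial markers, was the only line to lack *EPCAM* along with *CDH1*. The squamous markers did not set the squamous lines apart: SK-MES-1 had 3 of 6 (*TP63*, *KRT14* and *SOX2*), EBC-1 had 1 of 6 (*SOX2*), SBC-3 had 2 of 6 (*TP63* and *SOX2*) and A549 had 1 of 6 (*SOX2*). *KRT5*, *KRT6A* and *DSG3* were not well above background on any array. The adenocarcinoma markers did not set A549 apart either, as it had 3 of 6 (*NAPSA*, *KRT7* and *MUC1*), which EBC-1 and SK-MES-1 had as well, with 3 of 6 and 4 of 6, and SBC-3 had 2 of 6. These 2 lists therefore do not check the squamous and adenocarcinoma labels. Among markers of other cell types, *PTPRC* and *COL1A1* were above background on every array, *CD3E* on those of SBC-3 and EBC-1, *CDH5* and *PDGFRB* on some or all arrays of each line, and *PECAM1* on none.

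*DONSON* was well above background in both channels on 8 of 8 arrays, so its ratio could be given on each. Where *DONSON* was the target, the red signal was far under the green signal. The green and red intensities were 720 and 163 with siDONSON-1, 648 and 187 with siDONSON-2, and 669 and 155 with siDONSON-3. After *miR-150-3p* transfection, EBC-1 had 440 and 218, and SK-MES-1 had 503 and 431. In the *LOXL2*-edited cells the channels were close, with 341 and 370 on array 1, 366 and 417 on array 2, and 419 and 383 on array 3.

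**Figure D1:**
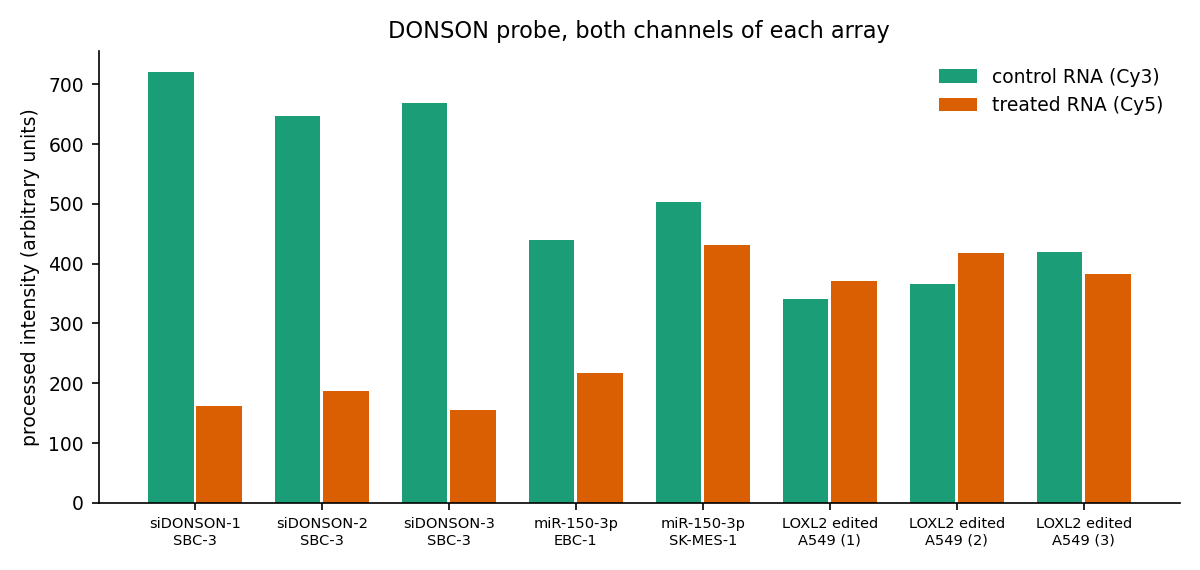
Background-subtracted *DONSON* intensity in the green (control) and red (treated) channel of each array. The lowest red value was 155, with siDONSON-3, and the highest green value was 720, with siDONSON-1.

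The siRNA labels match the *DONSON* signal. The log2 ratio to control was -2.15 with siDONSON-1, -1.79 with siDONSON-2 and -2.11 with siDONSON-3, or 22.6%, 28.9% and 23.1% of the control signal. *DONSON* fell, with a mean log2 ratio of -2.02 (SE 0.16, limma, adjusted p = 0.00168, 3 of 3 arrays below 0), which leaves 24.7% of control. The p-values here measure only the spread between these samples, which may be technical. Fewer cells that express a gene and less of its RNA per cell cannot be told apart in such bulk RNA. The value kept its call in every alternative, with limma adjusted p from 0.000389 to 0.0330 over the settings. Its size depended on the processing: with normexp correction of median signals and loess normalization together it was -0.89. That normexp setting adds an offset of 50 to each channel, which draws the ratios of dim probes toward 0.

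*DONSON* was among the lowest ratios of these arrays. Of all genes with a counted probe, 18 of 15593 had a lower ratio with siDONSON-1, 99 of 15123 with siDONSON-2 and 15 of 14881 with siDONSON-3. By the mean of the 3 arrays, 9 of 14453 genes were lower than *DONSON*, and 3 were lower on each array. A ratio below -1 on all 3 arrays was seen for 62 genes, so a fall of this kind was not limited to the target.

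The 3 siRNAs could not be ranked. siDONSON-1 differed from siDONSON-2 by -0.36, with 95% limits from the software error of -1.13 to 0.41. siDONSON-2 differed from siDONSON-3 by 0.32 (-0.44 to 1.09), and siDONSON-1 from siDONSON-3 by -0.036 (-0.83 to 0.76). The error of the array software is wide enough to hold each of these gaps.

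**Figure D2:**
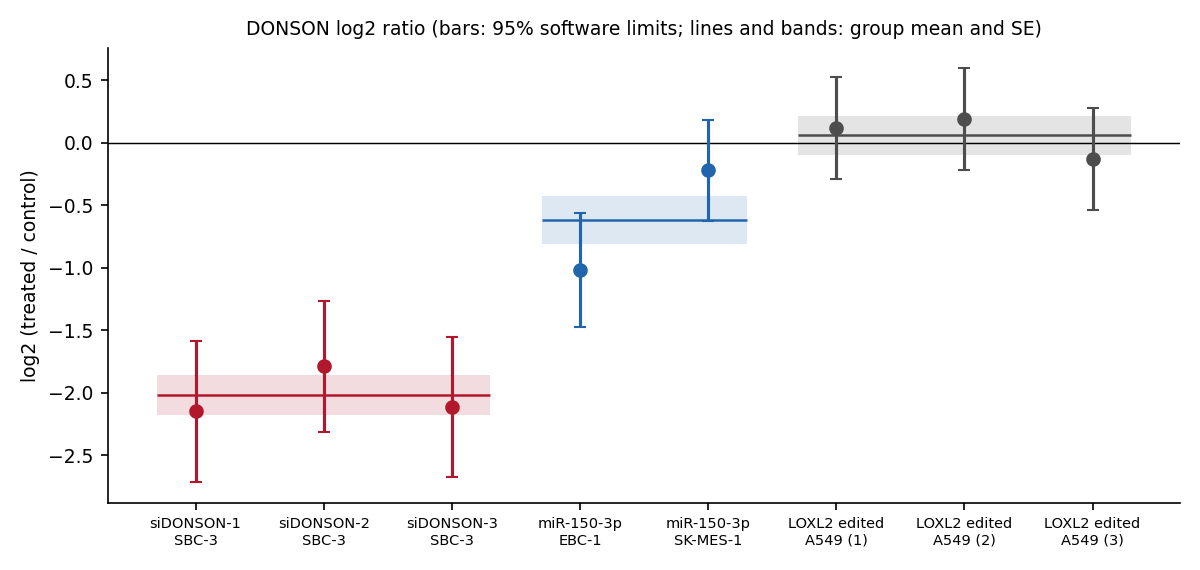
*DONSON* log2 ratio of treated to control on each array with the 95% limits of the software error. siDONSON-1 gave -2.15 and *LOXL2*-edited array 2 gave 0.19.

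*DONSON* was also lower with siDONSON than in the *LOXL2*-edited cells, a comparison in which a constant dye effect of the probe cancels. The difference was -2.07 (SE 0.22, adjusted p = 0.00374), or -0.92 with normexp and loess (adjusted p = 0.00115). All 3 siDONSON arrays lay under all 3 edited arrays, and 3.51% of genes tested were called lower there. Against *miR-150-3p* the difference was -1.40 (SE 0.24, adjusted p = 0.0342), where 1.13% of genes were called lower. With normexp and loess it was -0.65 (adjusted p = 0.0113). This call was fragile. It was lost on leaving out EBC-1 (-1.79), siDONSON-1, siDONSON-3 or any *LOXL2*-edited array, with adjusted p up to 0.0855, and over the other settings adjusted p reached 0.172. Lines and agents differ together in these contrasts, so a line effect and an agent effect cannot be told apart.

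With *miR-150-3p* the *DONSON* signal differed by line. The log2 ratio was -1.02 in EBC-1 (95% limits of the software error -1.47 to -0.56), which is 49.4% of control. In SK-MES-1 it was -0.22 (-0.63 to 0.18), or 85.8% of control. EBC-1 was lower by -0.80 (-1.41 to -0.18), more than the software error covers, although with 1 array per line the spread between cultures was not measured. With normexp and loess together the EBC-1 ratio was -0.35. The low EBC-1 ratio was shared by many genes, as 868 of 14759 were lower than *DONSON* there.

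The mean *DONSON* ratio over the 2 *miR-150-3p* arrays was -0.62 (SE 0.19), and it did not pass the threshold (limma, adjusted p = 0.0875, 2 of 2 arrays below 0). A p that misses the threshold does not show that *DONSON* stayed the same, since the 95% interval runs from -1.06 to -0.17. In this group 2.90% of genes tested, or 413, were called lower. The number was 726 with normexp and loess, 655 with both channels above background, 134 without a filter and 39 with the slide row. That count was 1 without EBC-1, 1585 without SK-MES-1, 216 without siDONSON-3, 29 to 48 without any *LOXL2*-edited array, and 0 with the replicate block or the group alone. The call depended on the array: without SK-MES-1 the value was -1.02 (adjusted p = 0.0142), where the lone EBC-1 array is assumed to vary like the other groups, and without EBC-1 it was -0.22 (adjusted p = 0.678). Against the *LOXL2*-edited arrays the difference was -0.68 (SE 0.25, adjusted p = 0.165), beside 1.87% of genes called lower. Without SK-MES-1 that difference was -1.08, and without EBC-1 it was -0.28. With normexp and loess it was -0.27 (adjusted p = 0.0983).

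Editing of *LOXL2* in A549 left the *DONSON* ratio near 0. The log2 ratios were 0.12, 0.19 and -0.13 on arrays 1, 2 and 3, and all limits of the software error include 0. The mean was 0.058 (SE 0.16, limma, adjusted p = 0.838), with an interval of -0.31 to 0.43, and without array 2 it was -0.0063. A shift of *DONSON* as large as with siDONSON lies outside this interval. The group had many other calls, with 6.77% of genes lower (1051) and 7.58% higher (1178). These counts were 208 to 270 and 262 to 323 without any edited array.

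The other parts of the replisome moved little beside *DONSON* in SBC-3. Of 63 replisome genes, 61 were tested, with a median log2 ratio of -0.12 against 0.031 for all genes, and 43 were below 0. limma called 3 lower and 0 higher, and at unadjusted p < 0.05 there were 7 lower and 0 higher, beside 1585 lower and 2186 higher of all 14453 genes. Among all genes tested, 3.21% were called lower and 4.01% higher, so calls were few on each side. No replisome gene came near the mean *DONSON* ratio of -2.02, as the range was -0.66 to 0.20.

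The genes that act beside *DONSON* at the origin showed no call. All 5 genes of CDC45 and GINS were tested, with a median of -0.14, and limma called 0 (0 at unadjusted p < 0.05). *CDC45* gave -0.87, 0.098 and -0.67, so siDONSON-2 pointed the other way, and its mean was -0.48 (adjusted p = 0.420). The 6 *MCM2* to *MCM7* genes had a median of -0.16, from -0.32 for *MCM6* to 0.056 for *MCM2*, with 0 called and 0 at unadjusted p < 0.05 in limma. The 8 helicase partners had a median of -0.075 and 0 called (0 at unadjusted p < 0.05, limma), and *MCM10* was at 0.028. The 9 origin licensing genes had a median of -0.049 and 0 called by limma, with 1 lower at unadjusted p < 0.05.

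The 3 calls were 1 polymerase and clamp gene and 2 fork protection genes, and 3 calls are too few to place an effect within the replisome. *RFC1* gave -0.59, -0.96 and -0.45 with siDONSON-1, siDONSON-2 and siDONSON-3, and its mean was -0.66 (SE 0.11, adjusted p = 0.019, 3 of 3 below 0). It was 1 of 22 polymerase and clamp genes, whose median was -0.10, and it lost its call without siDONSON-1 (-0.70, adjusted p = 0.0502) or siDONSON-3 (-0.77, adjusted p = 0.0535). Of 11 fork protection genes, 9 were below 0, with a median of -0.42, and 2 were called lower. At unadjusted p < 0.05 there were 4 lower, beside 1585 of all 14453 genes. *RAD9A* gave -0.29, -0.56 and -0.49, with a mean of -0.44 (adjusted p = 0.029), and it lost its call without siDONSON-2 (-0.39, adjusted p = 0.0619), siDONSON-3 (-0.42, adjusted p = 0.105) or any *LOXL2*-edited array. *RAD17* gave -0.69, -0.49 and -0.33, with a mean of -0.50 (adjusted p = 0.026), and lost its call on leaving out any siDONSON or *LOXL2*-edited array, with adjusted p up to 0.0803. With normexp and loess it was -0.10 (adjusted p = 0.106). With the replicate block none of the 3 genes was called, at adjusted p = 0.0511 for *RFC1*, 0.0883 for *RAD9A* and 0.0618 for *RAD17*.

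The replisome count itself hung on single arrays. It was 9 without EBC-1 or without SK-MES-1, 1 without siDONSON-1, siDONSON-2 or any *LOXL2*-edited array, and 0 without siDONSON-3. The median of the group means stayed between -0.20 and -0.046 over all settings, but the single arrays differed: it was -0.16 with siDONSON-1, 0.0092 with siDONSON-2, where 29 of 61 genes were below 0, and -0.25 with siDONSON-3. The number of all genes called lower was 464 and the number called higher 579. Without siDONSON-3 these were 58 and 39, and without EBC-1 they were 643 and 766. The values of *DONSON* stayed between -2.13 and -1.95 over the same leave-outs.

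**Figure D3:**
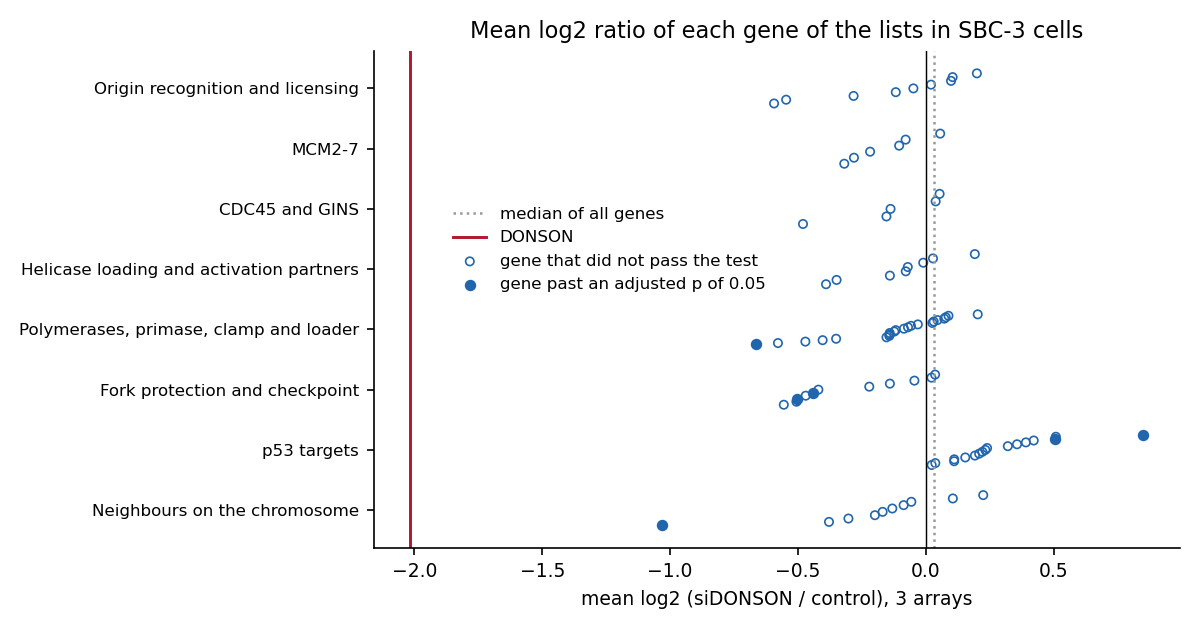
Mean log2 ratio with siDONSON for *DONSON*, for the genes of each replisome list, for p53 targets and for neighbours on the chromosome. *DONSON* was at -2.02 and the lowest replisome gene was *RFC1* at -0.66.

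Against the *LOXL2*-edited arrays the replisome with siDONSON lay close to all genes. The median difference was 0.0078, with 0.017 for all genes. limma called 1 of 61 replisome genes lower and 0 higher, beside 479 lower (3.51%) and 516 higher of all 13655 genes. At unadjusted p < 0.05 there were 2 lower and 0 higher, beside 1616 lower and 1858 higher of all genes. The 1 call was *RAD9A* (-0.69, adjusted p = 0.020), which lost its call without siDONSON-3 (adjusted p = 0.0544) and without each of the *LOXL2*-edited arrays, and with the replicate block (0.0717) or the slide row (0.121). Against *miR-150-3p* the median was 0.61, beside 0.022 for all genes. limma called 0 genes in this contrast, and at unadjusted p < 0.05 there were 2 lower and 16 higher, beside 1349 lower and 1641 higher of all 13027 genes.

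The p53 targets were looked at because stalled forks can activate p53. None of the 17 tested had a mean below 0 with siDONSON, and the median was 0.23, while 6577 of all 14453 genes were below 0 with a median of 0.031. On the single arrays 6, 5 and 1 targets were below 0. limma called 2 targets higher, beside 4.01% of all genes. Over the other settings and the leave-outs up to 6 were below 0, with medians of 0.16 to 0.32. *CDKN1A* gave 0.86, 1.22 and 0.46, with a mean of 0.85 (adjusted p = 0.031, 3 of 3 above 0), and *TNFRSF10B* gave 0.35, 0.53 and 0.64, with a mean of 0.51 (adjusted p = 0.025, 3 of 3 above 0). *CDKN1A* lost its call on leaving out any siDONSON or *LOXL2*-edited array, with adjusted p up to 0.0962, and *TNFRSF10B* without siDONSON-3 (0.44, adjusted p = 0.0967) or any *LOXL2*-edited array. With normexp and loess *CDKN1A* was 0.22 (adjusted p = 0.0665). With the replicate block neither was called, at adjusted p = 0.0697 for *CDKN1A* and 0.0754 for *TNFRSF10B*, nor was *CDKN1A* with the slide row (adjusted p = 0.0522). Both calls were also lost with the group alone (adjusted p = 0.140 and 0.168). Edited A549 cells had a *CDKN1A* value of 0.94 (adjusted p = 0.014, lost without any edited array, adjusted p up to 0.0796, and with the slide row, 0.0999, with a smallest value of 0.39 over the settings) beside a *DONSON* ratio near 0. Of the 17 targets, 1 was called lower there and 1 higher, beside 6.77% of all genes called lower and 7.58% higher. The lower call was *RRM2B* (-0.59, adjusted p = 0.039). It was lost without siDONSON-2 or any edited array (adjusted p up to 0.187), and with normexp and loess (-0.18), the replicate block (0.0878) or the slide row (0.261). In siDONSON against the edited cells, 0 p53 targets were called by limma, with a median of 0.094 and 3 higher at unadjusted p < 0.05, beside 1858 of all 13655 genes.

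Several genes under *DONSON* with siDONSON were dim. *C10orf105*, *LRRC15* and *MAGEB3* had red signals that were not well above background on any siDONSON array, and that of *IP6K3* was above it on 2 of 3, so these have only a bound. Another 4, chosen after the values were seen, were above background in both channels. *LY6D* gave -2.29, -2.77 and -2.51 (mean -2.52, SE 0.16, adjusted p = 0.00168). *S100A4* gave -1.86, -2.61 and -2.07 (mean -2.18, SE 0.14, adjusted p = 0.000929), and *CDH15* gave -2.07, -2.38 and -2.02 (mean -2.16, SE 0.11, adjusted p = 0.00168). These 3 genes kept their calls in every alternative, as *DONSON* did, but over the settings their smallest values were -0.98, -1.30 and -1.23. *FOXS1* gave -1.28, -2.34 and -2.59, with a mean of -2.07 (adjusted p = 0.0166), lost its call without siDONSON-3 (-1.81, adjusted p = 0.079) and with the replicate block (0.0504), had a smallest value of -0.51 over the settings, and was at -1.71 (adjusted p = 0.0135) in the *LOXL2*-edited cells, a call lost without any edited array (adjusted p up to 0.0721). *DONSON* was therefore not the only gene with a fall of this size, and sequence matches of the siRNAs were not tested.

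By the mean ratio with siDONSON, *DONSON* at -2.02 was below all its tested neighbours on chromosome 21. Of the 5 genes before and the 5 genes after it that were tested, 8 were below 0, and the range was -1.03 to 0.22. The nearest tested genes on each side were *SON* at 0.11 and *CRYZL1* at -0.13. The 1 call, beside 3.21% of all genes called lower, was *TMEM50B*, with -1.16, -0.36 and -1.58 and a mean of -1.03 (SE 0.21, adjusted p = 0.0314, 3 of 3 below 0). *TMEM50B* lost its call without siDONSON-1 (-0.97, adjusted p = 0.108), siDONSON-3 (-0.76, adjusted p = 0.121) or any *LOXL2*-edited array, and with the replicate block (adjusted p = 0.0536), the slide row (0.0506) or the group alone (0.162). With normexp and loess it was -0.70, where *DONSON* was -0.89.

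In EBC-1 with *miR-150-3p*, the lower *DONSON* signal went with a low replisome. Of 62 replisome genes, 42 had a ratio below -1, beside 6.04% of all genes, and the median was -1.51 against 0.053 for all genes. *DONSON*, at -1.02, lay above that median. Every replisome list was low: the median was -2.29 for CDC45 and GINS, -1.64 for *MCM2* to *MCM7*, -1.56 for the helicase partners, -1.38 for polymerases, -1.10 for origin licensing and -0.95 for fork protection. The lowest genes, named after the values were seen, were *MCM10* at -2.97, *GINS2* at -2.79 and *CLSPN* at -2.70. With normexp and loess together the count below -1 was 23.

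SK-MES-1 did not show this. There 0 of 62 replisome genes were below -1, beside 1.27% of all genes, and the median was -0.15 with 49 genes below 0. A count from 1 array carries no test. Over the 2 lines the median was -0.83 against 0.035 for all genes, and 57 genes were below 0. limma called 1 lower and 0 higher, beside 2.90% of all genes called lower. At unadjusted p < 0.05 there were 43 lower and 0 higher, beside 2121 lower and 2145 higher of all 14229 genes. The 1 call was *CHEK1*, with -1.35 and -0.52 and a mean of -0.94 (adjusted p = 0.049), and it was lost on leaving out any array but SK-MES-1, with -0.52 (adjusted p = 0.394) without EBC-1. *CHEK1* was -0.58 (adjusted p = 0.0596) with normexp and loess and was not called with the replicate block (0.129) or the slide row (0.171). The replisome count was 48 without SK-MES-1, 0 without any other array, 10 with normexp and loess, 9 with both channels above background and 0 with the replicate block. Against the *LOXL2*-edited arrays the median difference was -0.63, with 0 genes called by limma and 17 lower and 2 higher at unadjusted p < 0.05, beside 1572 lower and 1463 higher of all 13777 genes.

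**Figure D4:**
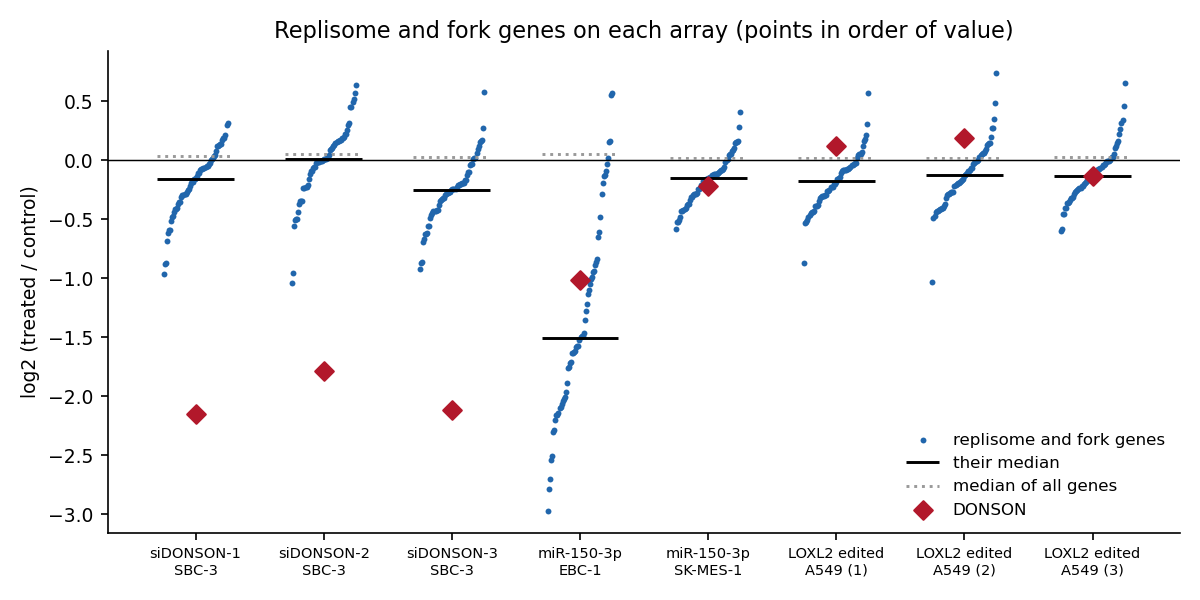
Log2 ratios of the replisome genes on each array, with *DONSON* marked. The EBC-1 median was -1.51 and the SK-MES-1 median was -0.15.

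Most p53 targets were not called with *miR-150-3p*. Of 15 tested, 4 were called higher, beside 2.47% of all genes, 4 had means below 0 and the median was 0.15. Among the calls were *BBC3* (0.97 and 0.89, mean 0.93, adjusted p = 0.0295) and *TNFRSF10B* (0.78 and 0.55, mean 0.67, adjusted p = 0.0295). *SESN1* and *TP53INP1* were also called, and their control signal was not well above background in EBC-1. Each of the 4 calls was lost without EBC-1 or any *LOXL2*-edited array, with adjusted p up to 0.395, and that of *SESN1* also without siDONSON-1 or siDONSON-2. None of the 4 was called without a filter or with the replicate block, where *BBC3* had adjusted p = 0.0909 and *TNFRSF10B* 0.114, or with the group alone (0.307 to 0.356). With the slide row *BBC3* (0.0973), *TNFRSF10B* (0.0988) and *SESN1* (0.182) were not called, and with normexp and loess *SESN1* and *TP53INP1* were not. In the *LOXL2*-edited cells the replisome median was -0.16, with 1 of 62 genes called lower, beside 6.77% of all genes. This was *RAD17* (-0.51, -0.41 and -0.34, mean -0.42, adjusted p = 0.028), which lost its call without each edited array, with adjusted p from 0.109 to 0.169. It was -0.069 (adjusted p = 0.165) with normexp and loess and -0.28 (0.208) with the slide row, and was not called with the replicate block (0.0598). The count was 0 without any edited array, 9 without EBC-1 or without SK-MES-1, 3 without siDONSON-2, 2 without siDONSON-3 and 27 with the group alone, so it is not firm. *DONSON* stayed near 0 in a group whose replisome median was slightly under 0.

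In control cells *DONSON* was highest in SBC-3. The green intensity scaled to the 75th percentile of its array gave log2 levels of 1.13, 1.14 and 1.11 in SBC-3, 0.77 in SK-MES-1, 0.51 in EBC-1, and 0.14, 0.25 and 0.39 in A549. SBC-3 was above A549 by 0.86 (SE 0.068, adjusted p = 6.37e-05), with all 3 arrays over all 3, and by 0.45 with normexp and quantile scaling. Whether the 3 control samples of a line are separate RNA is not stated, so this p-value may rest on repeat labelling of 1 RNA per line. SBC-3 was above EBC-1 by 0.61 and above SK-MES-1 by 0.35. Each of these pairs has 1 array in the squamous line, which is assumed to vary like the others, so no call is made for *DONSON*. Such gaps were common between lines. The share of genes called higher in SBC-3 was 40.1% against A549 (43.2% lower), 35.3% against EBC-1 and 38.2% against SK-MES-1.

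**Figure D5:**
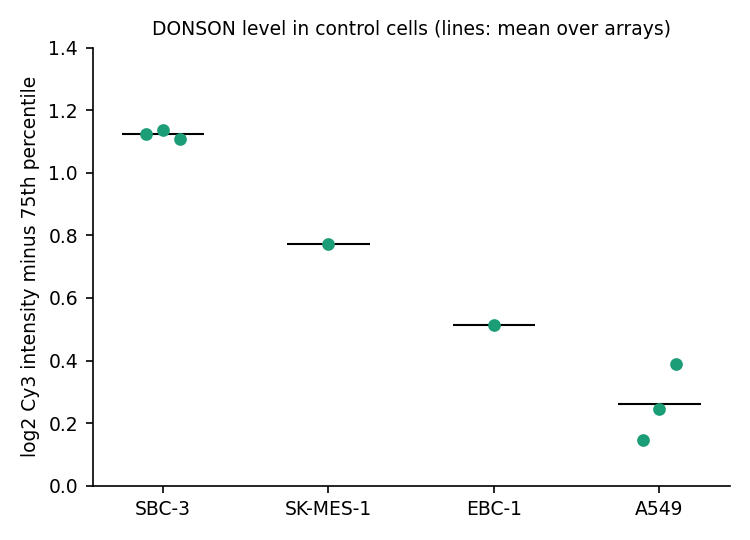
Scaled log2 *DONSON* level in the control channel of each cell line. SBC-3 had a mean of 1.12 and A549 a mean of 0.26.

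The order of the other lines was less firm. *DONSON* was lower in A549 than in SK-MES-1 by -0.51, but SK-MES-1 has 1 array, so no call is made for *DONSON*. In this pair 35.4% of all genes were called lower, with the 1 SK-MES-1 array assumed to vary like the others. A549 against EBC-1, which also has 1 array, gave -0.26, and without *LOXL2*-edited array 3 it was -0.32. EBC-1 against SK-MES-1 also gave -0.26, from 1 array each, so the spread within these lines was not measured and no call is made. Scaling mattered: with each array set to its median, SBC-3 was above SK-MES-1 by 0.24. On that scale A549 against SK-MES-1 was -0.39 and A549 against EBC-1 was 0.0012. The higher level of SBC-3 over A549 was called under every scaling, and SBC-3 stayed above the 1 EBC-1 array, by 0.37 to 0.66 over the settings.

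The high *DONSON* level of SBC-3 was not part of a general rise of the replisome over A549. Of 62 replisome genes, 36 were called lower in SBC-3, beside 43.2% of all genes, and 16 higher, beside 40.1%, and the median difference was -0.27 against -0.039 for all genes. The number called higher ran from 6 with median scaling to 25 with normexp and quantile scaling, and the number called lower from 31 to 40. Of 17 p53 targets, 13 were called higher and 3 lower, beside the same 40.1% and 43.2% of all genes.

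Genes whose ratios ran most like *DONSON* over the 8 arrays were ranked among 11210 genes above background in both channels on all arrays. The first 10 had correlations of 0.963 to 0.970 (n = 8 arrays), among them *SMU1*, *VAPB*, *HSPA9*, *CRIP1*, *LINC00526*, *HNRNPUL2*, *TAF1A-AS1*, *PCDHGA7* and *MAMSTR*. The 3 siDONSON arrays hold the lowest *DONSON* ratios, so they weigh most in such a correlation. *HNRNPUL2* gave -0.76, -0.64 and -0.75 with siDONSON (mean -0.72, adjusted p = 0.00932), far from the -2.02 of *DONSON*, and lost its call without siDONSON-3 (-0.70, adjusted p = 0.0526) and with the group alone (0.116). Its smallest value over the settings was -0.31. Of the first 10, 1 stayed when the normexp and loess ratios were ranked.

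Without the siDONSON arrays other genes came first. Over the other 5 arrays 0 of the first 10 were shared, and *MED20*, *SRSF1* and *DCTN4* led, although *CRIP1* still had a correlation of 0.971 (n = 5) at rank 260 and *HSPA9* 0.940 at rank 915. The replisome genes measured here, 58 in number, had a median correlation with *DONSON* of 0.066 over 8 arrays and 0.929 over 5 arrays, while all genes had -0.024 and 0.0040. Over 5 arrays EBC-1 had by far the lowest *DONSON* ratio, and 1572 genes had a correlation above 0.9 there, against 118 over 8 arrays. With so many genes near the top, the order over 5 arrays says little about *DONSON*.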

How the data were processed

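The authors deposited Feature Extraction output for 8 two-colour arrays on 1 slide, each with dye-normalized, background-subtracted intensity in 2 channels, and a series table of log10 ratios that equals these values. The log2 ratio of red to green processed intensity was used. Of 58201 probes, those with an accession found in the RefSeq gene table were named. A gene value was the mean over unflagged, non-control probes well above background in at least 1 channel. limma 3.58.1 in R 4.3.3 fitted 3 groups on 8 arrays, with moderated variances and Benjamini-Hochberg adjustment over all genes tested in each contrast, and an adjusted p under 0.05 was a call. This fit shares the variance of a gene over the groups, so the gap between EBC-1 and SK-MES-1 enters the error of each contrast. Ranks count genes with a lower ratio. Single-array limits used the log ratio error of the software. Control levels were log2 green intensity minus the 75th percentile of the array, with a separate limma fit of 4 lines.

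*DONSON* and the lists (origin licensing, *MCM2* to *MCM7*, CDC45 and GINS, helicase partners, polymerases and clamps, fork protection, p53 targets, chromosome neighbours, cell line markers) were chosen with earlier results of these data known. The code was tested on simulated data. The accompanying paper describes only the *miR-150-3p* arrays, so the siDONSON and *LOXL2* arrays rest on their labels. Alternatives were other background, scaling, filter and probe choices, a replicate block, a slide row term and leaving out each array. The software mean signals are absent from the files, so the normexp alternative started from median signals, with an offset of 50.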

Additional observations from a re-analysis of the deposited data

How the results depend on the processing

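Each value was recomputed under the alternatives and with each array left out. *DONSON* with siDONSON ran from -2.06 to -0.89 over the settings and from -2.13 to -1.95 over the leave-outs. With a replicate block as a fixed term in limma its adjusted p was 0.0155. Arrays of the same replicate number did not resemble each other after group means were removed (correlations -0.022, -0.026 and -0.012 over 12862 genes), so the numbers were not treated as pairs. The slide row term was added after seeing the data.

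For siDONSON against *LOXL2* the settings gave -2.21 to -0.92 and the leave-outs -2.19 to -2.01, all called. For siDONSON against *miR-150-3p* the leave-outs gave -1.79 to -0.999, normexp and loess gave -0.65 (adjusted p = 0.0113), and the call was lost without a filter (-1.40, adjusted p = 0.0784), with the groups compared alone (-1.40, 0.172), with the block (-1.40, 0.0991) and with the slide row (-1.33, 0.0702).

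*DONSON* with *miR-150-3p* was -0.72 to -0.24 over the settings, with adjusted p of 0.0554 to 0.376, and -1.02 to -0.22 over the leave-outs. With *LOXL2* editing it was 0.030 to 0.16 over the settings, with adjusted p of 0.598 to 0.908, and -0.0063 to 0.15 over the leave-outs, where the sign reversed without array 2. For *miR-150-3p* against *LOXL2* the leave-outs gave -1.08 to -0.28. The EBC-1 ratio was -0.35 with normexp and loess.

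Genes called lower with siDONSON were 2133 without a filter, 24 with the group alone and 168 with the block, and 58 to 643 over the leave-outs. Genes called higher were 967 with normexp and loess, 2 with the group alone and 131 with the block, and 39 to 766 over the leave-outs. Median centring gave 533 lower and 443 higher in place of 464 and 579. With *LOXL2* editing, genes called lower were 3914 without a filter, 2852 with the group alone, 590 with the block and 416 with the slide row in place of 1051, and genes called higher were 1856 with normexp and loess, 3021 with the group alone, 715 with the block and 453 with the slide row in place of 1178. With siDONSON, replisome genes called lower were 0 with the group alone and 0 with the block, and 0 to 9 over the leave-outs. In EBC-1, 23 replisome genes were below -1 with normexp and loess.

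The *DONSON* level in SBC-3 minus A549 was 0.81 to 0.93 over the leave-outs and 0.45 to 0.92 over the scalings. SBC-3 minus EBC-1 was 0.60 to 0.62 and SBC-3 minus SK-MES-1 0.34 to 0.36 over the leave-outs, and with median scaling the latter was 0.24. With normexp and quantile scaling they were 0.37 and 0.23, and A549 minus SK-MES-1 was -0.23. A549 minus SK-MES-1 was -0.58 to -0.46 over the leave-outs, and -0.39 with median scaling. A549 minus EBC-1 was -0.32 to -0.20 over the leave-outs, reversed to 0.0012 with median scaling, and was -0.26 with quantile scaling. EBC-1 minus SK-MES-1 sets 1 array against 1: it was -0.26 in each leave-out, -0.15 with normexp and quantile scaling and -0.40 with median scaling. Each pair with EBC-1 or SK-MES-1 has 1 array in that line and is not read as a call. Of the first 10 genes by likeness, 0 were shared without the siDONSON arrays and 1 was shared with normexp and loess.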
